A study of Homo sapiens with 24 samples.

Results

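The 10 genes described here are imprinted genes, that is, genes transcribed mainly from the allele of one parent: PEG3, ZIM2, NAP1L5, SNRPN, NDN, MEST, GRB10, PEG10, PLAGL1 and SGCE. They are 10 of the 23207 genes in the deposited tables and were found by symbol. PEG3 and NAP1L5 were chosen by their measured fall after SIRT1 knockdown, so their knockdown values below are descriptions with no test. The other 8 were picked as imprinted genes, and the response of all members to androgen and to an antiandrogen played no part in the choice.

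RNA sequencing was done on LNCaP cells, a hormone-sensitive human prostate cancer line, in 8 groups of 3 libraries. All cells carried a lentiviral short hairpin RNA delivered at a multiplicity of infection of 10, against SIRT1 or a scrambled non-targeting control (NTC), and were selected with 1 µg/ml puromycin and kept in 0.5 µg/ml. SIRT1 encodes an NAD-dependent protein deacetylase. In medium with fetal bovine serum (FBS), which contains androgens, the groups were the knockdown named shSIRT1 and NTC. The other groups were grown in charcoal-stripped serum (CSS), from which androgens are depleted, and were a knockdown named 10 and NTC. The CSS cells spent 48 h in FBS medium and 24 h in CSS medium before 24 h with vehicle, with 1 nM dihydrotestosterone (DHT, an androgen), or with 1 nM DHT and 10 µM enzalutamide, an antiandrogen drug. The labels speak of stable knockdown clones and do not say whether shSIRT1 and 10 carry the same hairpin, so SIRT1 loss and differences between clones cannot be told apart. Nothing in the labels says that the 3 libraries of a group came from separate cultures, so p values measure the spread between these libraries, which may be technical.

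In imprinting, DNA methylation laid down in the egg or the sperm marks one parental copy of a control region, and the marked and unmarked copies then differ in transcription. Dividing cells keep the mark through the maintenance methyltransferase DNMT1 and its partner UHRF1, and zinc-finger proteins such as ZFP57 protect it in the early embryo. Imprinted genes are best known for growth and metabolism in the fetus and placenta, and many are silenced or lose their allele bias in tumours. The counts here sum both alleles and do not show which was transcribed.

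The 6 FBS libraries held 11894009 to 14196160 counts and the 18 CSS libraries 25236335 to 35108290. SIRT1 itself averaged 8.08 ± 0.82 CPM (counts scaled to a library total of 1000000) in shSIRT1 cells, against 38.3 ± 1.69 CPM in NTC cells in FBS (SD, n = 3 each), and was 2.93 to 3.14-fold lower in knockdown 10 in CSS. All 9 luminal prostate markers, among them KLK3, were above 1 TPM (transcript abundance per length, also scaled to 1000000) in every group, with sums of 2640 to 3690 TPM per library, while the sums were 7.84 to 45.5 TPM over 6 basal markers, 5.08 to 10.8 TPM over 6 fibroblast markers and 2.05 to 14.8 TPM over 8 leukocyte or endothelial markers. Of the luminal markers edgeR called 1 lower in FBS, and 4, 4 and 3 lower and 1, 2 and 2 higher in CSS with vehicle, DHT, and DHT with enzalutamide (with the replicate numbers as a block, 4 in FBS and 8 in each CSS comparison, both directions together), and their part in the results below was not tested. In bulk RNA, fewer expressing cells and less RNA per cell cannot be told apart. In FBS libraries 1 and 2 of a group stood close together, with a chi-square statistic of 1.6 per gene in shSIRT1 and 1.55 in NTC, whereas against library 3 it was 8.89 and 9.39 in shSIRT1 and 9.37 and 8.94 in NTC. The libraries of the FBS and CSS sets carry different kinds of labels, and transcript length exceeded effective length by a median of 50 bases in FBS and 224 to 252 bases in CSS, so levels were not compared between the sets.

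Per unit of transcript length, 3 members were well expressed and 3 were close to silent. In NTC cells with vehicle the mean TPM was 280 for SNRPN, 266 for GRB10, 97 for PEG3, 25.3 for NDN, 9.6 for MEST, 3.49 for ZIM2, 1.02 for NAP1L5, 0.217 for PEG10, 0.14 for PLAGL1 and 0.08 for SGCE. The libraries of SNRPN and GRB10 overlapped in TPM, as did those of PEG10, PLAGL1 and SGCE at the bottom, and every other neighbouring pair in this order was separate. In knockdown 10 with vehicle SNRPN (366 TPM) and GRB10 (234 TPM) no longer overlapped, PEG3 (19.1 TPM) came after NDN (22.5 TPM) with overlapping libraries, and NAP1L5 was last at 0. SGCE, which encodes epsilon-sarcoglycan of the muscle membrane complex and lies beside PEG10, had 44 counts over all 24 libraries and passed the low-count filter in no fit, and PLAGL1 passed only in CSS. The remaining 8 members were tested in both sets.

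**Figure D1:**
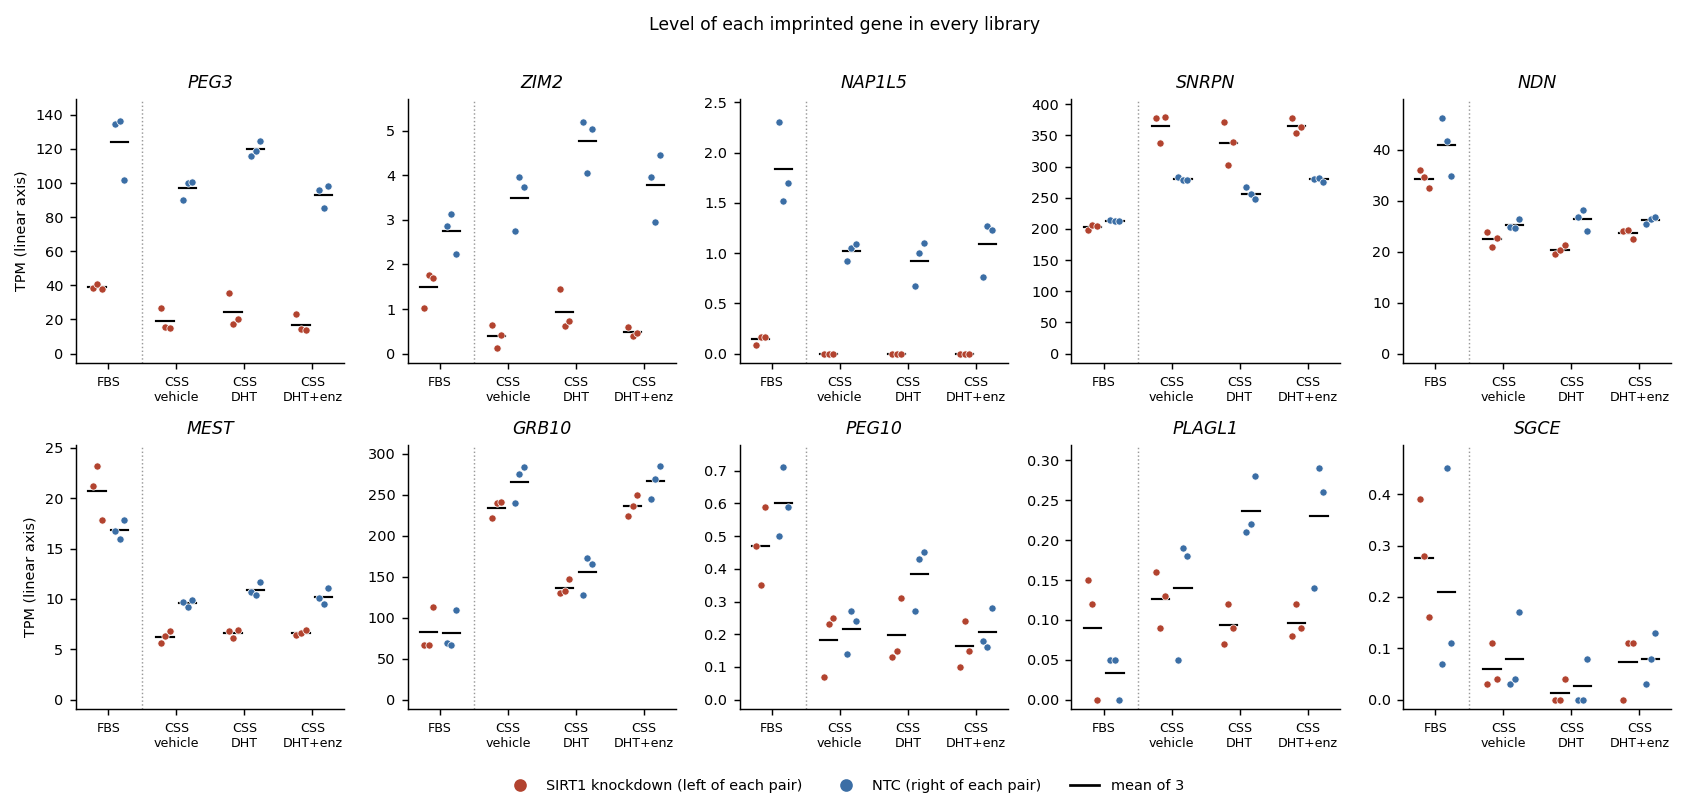
Level of each imprinted gene in TPM (vertical axis, linear) in each of the 24 libraries, by medium and treatment (horizontal axis), with SIRT1 knockdown in red to the left of NTC in blue and a black bar for the mean of 3 libraries. PEG3, ZIM2 and NAP1L5 are lower in every knockdown library than in every NTC library of the same medium and treatment, SNRPN is higher in knockdown 10 in CSS, and GRB10 is low where DHT was given alone. The dotted line parts FBS from CSS, whose levels are not comparable.

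PEG3 was 3.17-fold lower in shSIRT1 cells in FBS and 4.90 to 5.52-fold lower in knockdown 10 in CSS. It encodes a large zinc-finger protein transcribed from the paternal copy on chromosome 19. In FBS it measured 160, 168 and 165 CPM in shSIRT1 cells, against 562, 573 and 434 CPM in NTC cells, a log2 fold change of -1.66. With vehicle in CSS it measured 137, 80.8 and 75.2 CPM in knockdown 10, against 478, 515 and 517 CPM in NTC cells, a log2 fold change of -2.36. The 3 shSIRT1 libraries lay close together, whereas library 1 of knockdown 10 stood above libraries 2 and 3.

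With DHT in CSS, PEG3 had 173, 98.8 and 102 CPM in knockdown 10, against 602, 600 and 633 CPM in NTC cells, a log2 fold change of -2.29. With DHT and enzalutamide it had 120, 72.7 and 68.9 CPM in knockdown 10, against 499, 448 and 501 CPM in NTC cells, a log2 fold change of -2.46. Library 1 of knockdown 10 was again the highest of its group under both treatments. Leaving out the 3 knockdown 10 libraries numbered 1, a step chosen after seeing the data, gave log2 fold changes of -2.69, -2.61 and -2.78 with vehicle, DHT and DHT with enzalutamide.

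NAP1L5 was at or near 0 reads in all knockdown libraries. It encodes a nucleosome assembly protein-like factor, is transcribed from the paternal copy, and lies inside the gene HERC3 on chromosome 4. In FBS 1, 2 and 2 reads were counted in the 3 shSIRT1 libraries, against 31, 20 and 21 reads in NTC cells, or 0.137 ± 0.048 CPM in shSIRT1 and 1.76 ± 0.38 CPM in NTC cells (SD, n = 3 each). The fitted log2 fold change was -3.60. NAP1L5 passed the low-count filter through NTC libraries and no knockdown library, in FBS and in CSS. A lower value in knockdown was thus favoured by the filter as well as by the choice of the gene. In CSS no read was counted in any of the 9 knockdown 10 libraries, against sums over 3 libraries of 101 reads with vehicle, 89 with DHT and 114 with DHT and enzalutamide in NTC cells. Taking 3 counts over a group as the limit that a count of 0 allows, NAP1L5 was at least 34.7-fold lower in knockdown 10 with vehicle, at least 26.7-fold lower with DHT and at least 34.2-fold lower with DHT and enzalutamide. These bounds cover counting error in the knockdown 10 group only and take the NTC mean as measured. Even in NTC cells the gene had only 24 to 46 reads per CSS library, and whether reads were assigned by strand is not given in the sources used here, so reads from HERC3 and NAP1L5 may not be fully separated.

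The 250 bases before the start of NAP1L5 are shown because this gene alone among the members had no read in any knockdown 10 library. They span chr4:88697830-88698079 on the minus strand of GRCh38.p14, from RefSeq, and hold 16 CpG dinucleotides, the sites of DNA methylation, here in capitals.
NAP1L5: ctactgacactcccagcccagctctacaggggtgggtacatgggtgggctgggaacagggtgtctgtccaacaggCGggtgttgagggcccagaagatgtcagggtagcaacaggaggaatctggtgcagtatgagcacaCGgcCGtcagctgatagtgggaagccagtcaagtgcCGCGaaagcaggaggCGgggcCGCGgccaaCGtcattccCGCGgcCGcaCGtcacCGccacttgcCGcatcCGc
With the 50 bases after the start, the window held 18 CpG and 64% G+C, against medians of 14 CpG and 58.7% over 35116 promoter windows of 300 bases. The motif TGCCGC, the core of the ZFP57 site, occurred 2 times in it on either strand, and 16.7% of all windows held it at least once. No methylation was measured here. RefSeq windows were found for 6 of the 10 members (NAP1L5, PLAGL1, GRB10, MEST, NDN and SNRPN), with 21 starts in all. Each of these 6 genes held TGCCGC in at least 1 of its windows, with 3 matches in a window of MEST.

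HERC3, the E3 ubiquitin ligase gene around NAP1L5, was not called in the 3 CSS knockdown comparisons, and in FBS its call depended on the pairing of libraries. With vehicle HERC3 averaged 153 ± 5.08 CPM in knockdown 10 and 142 ± 3.55 CPM in NTC cells (SD, n = 3 each), a log2 fold change of 0.11 ± 0.11 (SE; edgeR adjusted p = 0.481). In FBS it averaged 218 ± 34.9 CPM in shSIRT1 and 324 ± 48.9 CPM in NTC cells, -0.56 ± 0.13 on the log2 scale, and missed the threshold (adjusted p = 0.0594), but the replicate block called it lower (-0.56, adjusted p = 7.98e-06). Of the 8 tested neighbours of NAP1L5, edgeR called 0 in FBS (3 at an unadjusted p under 0.05, and with the replicate block 1, HERC3). Without the block 2.71% of all genes were called there. In CSS with vehicle edgeR called 1 lower (2 with the block), HERC5, with a log2 fold change of -0.47 ± 0.15 (adjusted p = 0.0179). Without the block 15.5% of all genes were called higher and 19.1% lower with vehicle. The median log2 fold change of these 8 was -0.10 with vehicle, against 0.00 over all genes.

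ZIM2 overlaps PEG3 and is transcribed from the same region, and its reads made up 0.205 to 1.15% of those of PEG3 in each library, so its counts are uncertain where RSEM shared reads between the pair. PEG3 was chosen for its fall, so the knockdown changes of ZIM2 may not be a separate observation. In CSS with vehicle ZIM2 measured 0.796, 0.166 and 0.511 CPM in knockdown 10, against 3.55, 4.93 and 4.64 CPM in NTC cells, a log2 fold change of -3.14 ± 0.33 (SE; edgeR adjusted p = 1.63e-06). It was also lower in knockdown 10 with DHT (-2.35 ± 0.29, adjusted p = 5.54e-06) and with DHT and enzalutamide (-2.97 ± 0.32, adjusted p = 2.2e-06). No knockdown library reached the lowest NTC library under any of these treatments. In FBS ZIM2 measured 1.11, 1.89 and 1.89 CPM in shSIRT1 cells, against 3.06, 3.38 and 2.43 CPM in NTC cells, without overlap, but the change of -0.84 ± 0.26 was not called (adjusted p = 0.133). Without both FBS libraries numbered 3 it was called, at -1.09 (adjusted p = 0.00966, over a range of 0.00966 to 0.602 in the alternatives).

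Of 16 tested neighbours of PEG3 and ZIM2 in FBS, edgeR called 0 (4 at an unadjusted p under 0.05, and with the replicate block 2 higher and 1, DUXA, lower). Without the block 2.71% of all genes were called there. The median log2 fold change of these 16 was 0.15, against 0.01 over all genes. Of 14 in CSS with vehicle, 5 were higher and 1 was lower in knockdown 10 (6 and 1 with the replicate block). Of all genes, 15.5% were called higher and 19.1% lower there without the block. The lower one was DUXA, a double homeobox gene, at -0.71 ± 0.11 on the log2 scale (SE; adjusted p = 0.000117), and it was also lower with DHT (-0.86, adjusted p = 1.08e-05) and with DHT and enzalutamide (-0.54, adjusted p = 0.00147). MIMT1, an imprinted non-coding RNA gene near PEG3, was not called in any knockdown comparison (log2 fold changes -0.24 to -0.56).

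**Figure D2:**
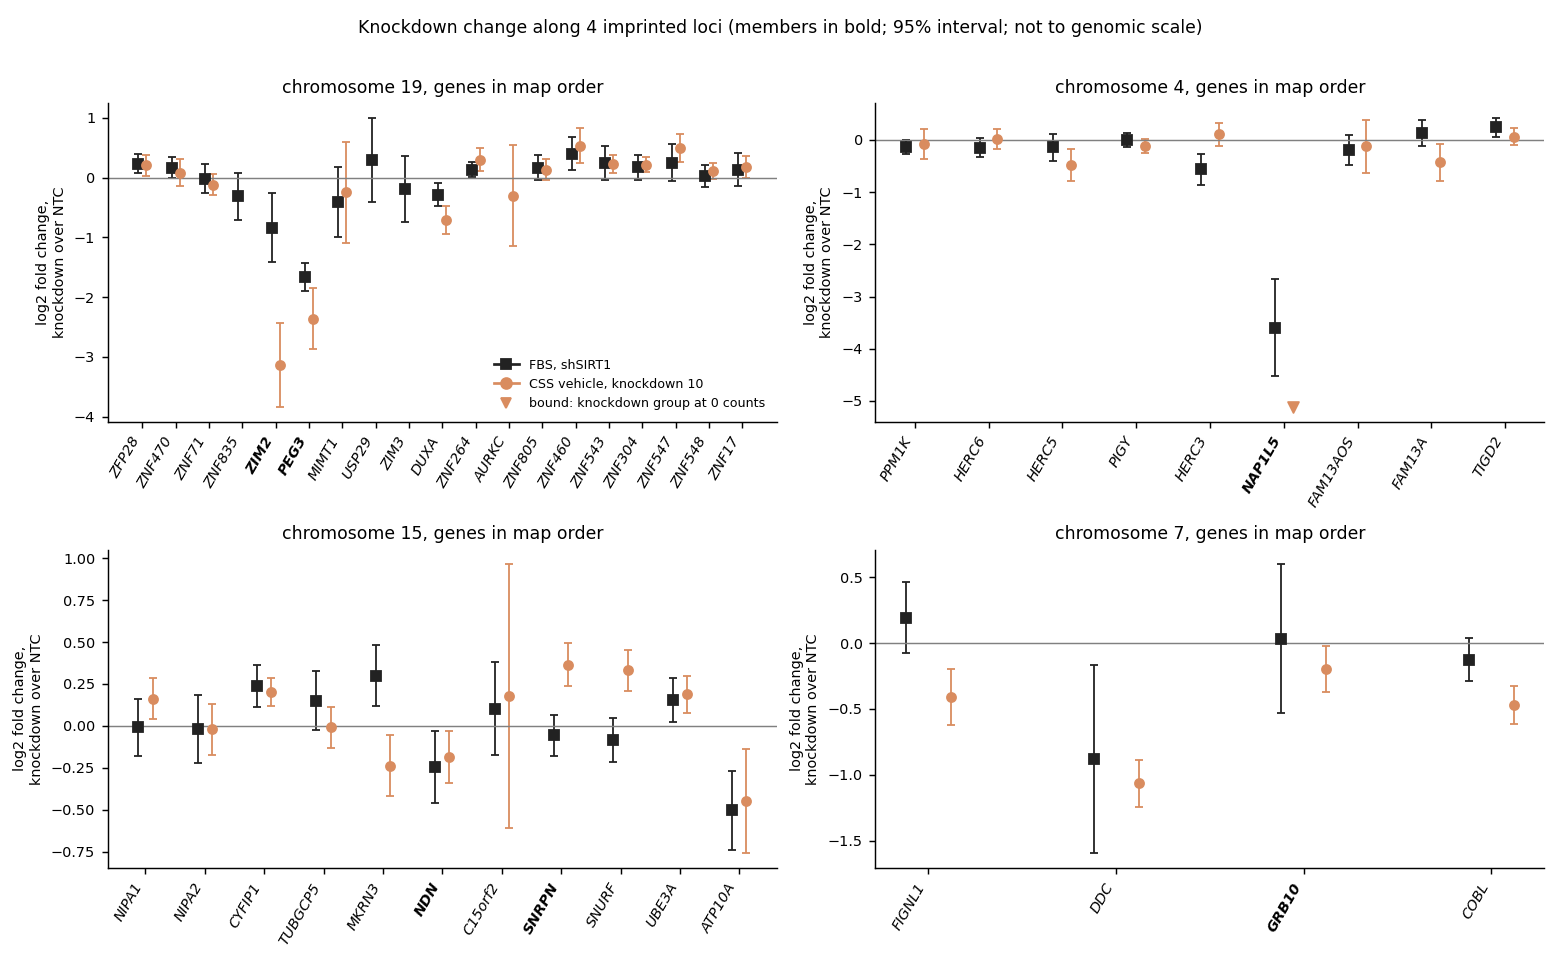
Log2 fold change of knockdown over NTC with its 95% interval (vertical axis) for the tested genes around 4 imprinted loci, 1 of them left out, in map order and not to scale (horizontal axis), with FBS as black squares and CSS with vehicle as orange circles; members are in bold. PEG3 and ZIM2 lie below all their neighbours, and so does NAP1L5, whose triangle is a bound because no read was counted in knockdown 10. PEG3 and NAP1L5 were chosen for this fall, and their intervals do not allow for that choice. ZIM2 overlaps PEG3.

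Of the 8 members that were not chosen for their fall, 6 could be tested in FBS and edgeR called 0 of them, where 2.71% of all tested genes were called (0.509% higher and 2.21% lower). 3 of these 6 (MEST, NDN and ZIM2) had an unadjusted p under 0.05, and DESeq2 and limma also called 0. In CSS 7 of the 8 could be tested. With vehicle 1 was called higher and 2 lower, where 34.6% of all genes were called (15.5% higher and 19.1% lower). With DHT 1 was higher and 4 were lower, PLAGL1 among them, beside 43% of all genes (19.5% higher and 23.5% lower). With DHT and enzalutamide 1 was higher and 3 were lower, again with PLAGL1, beside 34.6% (15.4% higher and 19.2% lower). ZIM2 was among the lower ones in each CSS comparison, overlaps the chosen gene PEG3, and may not be a separate observation. Calls were so common in CSS that these counts alone do not set the members apart.

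MEST, an imprinted gene for a predicted hydrolase transcribed from the paternal copy on chromosome 7, was lower in knockdown 10. With vehicle it measured 7.65, 8.67 and 9.19 CPM in knockdown 10, against 13.7, 12.5 and 13.5 CPM in NTC cells, a log2 fold change of -0.64 ± 0.08 (SE; edgeR adjusted p = 1.13e-05). It was lower by about as much with DHT (-0.69 ± 0.08, adjusted p = 3.1e-06) and with DHT and enzalutamide (-0.63 ± 0.08, adjusted p = 1.31e-05). In FBS the values lay on the other side, with 24.8, 26.9 and 21.8 CPM in shSIRT1 cells, against 19.5, 18.6 and 21.2 CPM in NTC cells, also without overlap. That difference of 0.32 ± 0.10 was not called (adjusted p = 0.13). It was called with the replicate number as a block (adjusted p = 0.0469), in 1 fit of all 24 libraries (0.32, adjusted p = 0.0309) and without both libraries numbered 3 (0.44, adjusted p = 0.000713), over a range of 0.000713 to 0.742 in the alternatives. COPG2, a coatomer gene that overlaps MEST, was called in 1 knockdown comparison: with DHT it was lower in knockdown 10, at -0.15 on the log2 scale, and it was not called in the other knockdown comparisons.

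SNRPN, which encodes the spliceosomal protein SmN and is transcribed from the paternal copy on chromosome 15, was higher in knockdown 10. With vehicle it measured 262, 238 and 261 CPM in knockdown 10, against 204, 194 and 193 CPM in NTC cells, a log2 fold change of 0.37 ± 0.06 (SE; edgeR adjusted p = 0.000188). The change was 0.43 ± 0.06 with DHT (adjusted p = 2.61e-05) and 0.38 ± 0.06 with DHT and enzalutamide (adjusted p = 0.000139), and the groups did not overlap under any treatment. In FBS SNRPN measured 128, 133 and 138 CPM in shSIRT1 cells, against 138, 139 and 140 CPM in NTC cells, with overlapping groups (adjusted p = 0.655). SNURF, which shares its transcripts with SNRPN, had nearly the same counts, with a ratio of SNRPN to SNURF between 0.944 and 1.10 in every library. Its changes in CSS (0.33, 0.38 and 0.34, all called) are therefore not a separate observation.

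NDN, the gene of the MAGE-family protein necdin that restrains growth in neurons, lies in the same region of chromosome 15 and was called lower in knockdown 10 with DHT, where SNRPN was higher. With DHT it measured 19.3, 23.3 and 21.7 CPM in knockdown 10, against 27.9, 28.6 and 24.8 CPM in NTC cells, and was lower, at -0.34 ± 0.07 on the log2 scale (SE; edgeR adjusted p = 0.00144). With vehicle the change was -0.19 ± 0.07 (adjusted p = 0.0588), with DHT and enzalutamide -0.16 ± 0.07 (adjusted p = 0.106) and in FBS -0.25 ± 0.10 (adjusted p = 0.235). With the replicate block it was also called with vehicle (adjusted p = 0.0365, range 0.0211 to 0.238 over the alternatives) and in FBS (adjusted p = 0.0492, range 0.00159 to 0.811). Among the other genes of this region, ATP10A, a phospholipid flippase gene, was lower in all 4 knockdown comparisons, at -0.50 in FBS (adjusted p = 0.0402) and -0.45, -0.48 and -0.52 in CSS (adjusted p = 0.0264, 0.0131 and 0.0121).

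PLAGL1, a zinc-finger gene known as a growth suppressor, was called lower in knockdown 10 with DHT (-1.26 ± 0.42, SE; edgeR adjusted p = 0.0216) and with DHT and enzalutamide (-1.39 ± 0.41, adjusted p = 0.0141). PLAGL1 passed the low-count filter in CSS through 6 NTC libraries (1 with vehicle, 3 with DHT and 2 with DHT and enzalutamide) and no knockdown 10 library, so a lower value in knockdown 10 was favoured by the filter and these calls support nothing. Both rest on a handful of reads: 3, 6 and 5 in knockdown 10 with DHT, against 12, 12 and 14 in NTC cells, and 4, 6 and 4 in knockdown 10 with DHT and enzalutamide, against 10, 14 and 18 in NTC cells. The call with DHT was lost without library 1 or 3 of knockdown 10 with DHT (adjusted p = 0.0712 and 0.0534) or library 3 of NTC with DHT (0.0671), with DESeq2 (0.0665), and without the 3 knockdown 10 libraries numbered 1 (0.0886), within a range of 0.0133 to 0.0886. The call with DHT and enzalutamide was lost without library 3 of knockdown 10 (0.0596) or of NTC (0.061) and with limma (0.0553), within a range of 0.00777 to 0.061. With vehicle the reads were 9, 5 and 8 in knockdown 10 and 3, 10 and 10 in NTC cells, and no change was called (adjusted p = 0.875).

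PEG10, a gene derived from a retrotransposon and best known in the placenta, was not called in any knockdown comparison. Its change farthest from 0 was with DHT, where 0.476, 0.646 and 1.21 CPM in knockdown 10 stood against 1.09, 1.67 and 1.76 CPM in NTC cells, a log2 fold change of -0.93 ± 0.40 (SE; adjusted p = 0.0687). It was called there with the replicate block (-0.97, adjusted p = 0.00688) and without library 3 of knockdown 10 with DHT (-1.41, adjusted p = 0.0238), in a range of 0.00688 to 0.198.

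GRB10, an adaptor that binds the insulin and insulin-like growth factor receptors and restrains their signal, had slightly lower means in knockdown 10 but was not called. With vehicle it averaged 664 ± 35.6 CPM in knockdown 10 and 763 ± 55.3 CPM in NTC cells (SD, n = 3 each), a log2 fold change of -0.20 ± 0.08 (SE; edgeR adjusted p = 0.0726). The changes were -0.15 with DHT (adjusted p = 0.139) and -0.19 with DHT and enzalutamide (adjusted p = 0.0876), and the replicate block called all 3 (adjusted p = 0.00278, 0.0131 and 0.0042, in ranges of 0.00278 to 0.238, 0.0115 to 0.433 and 0.0042 to 0.251). The change with DHT was -0.26 without library 1 of NTC with DHT (adjusted p = 0.0115). In FBS GRB10 measured 156, 156 and 275 CPM in shSIRT1 cells, against 160, 156 and 260 CPM in NTC cells. Library 3 was the high one in both groups, and the groups overlapped.

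**Figure D3:**
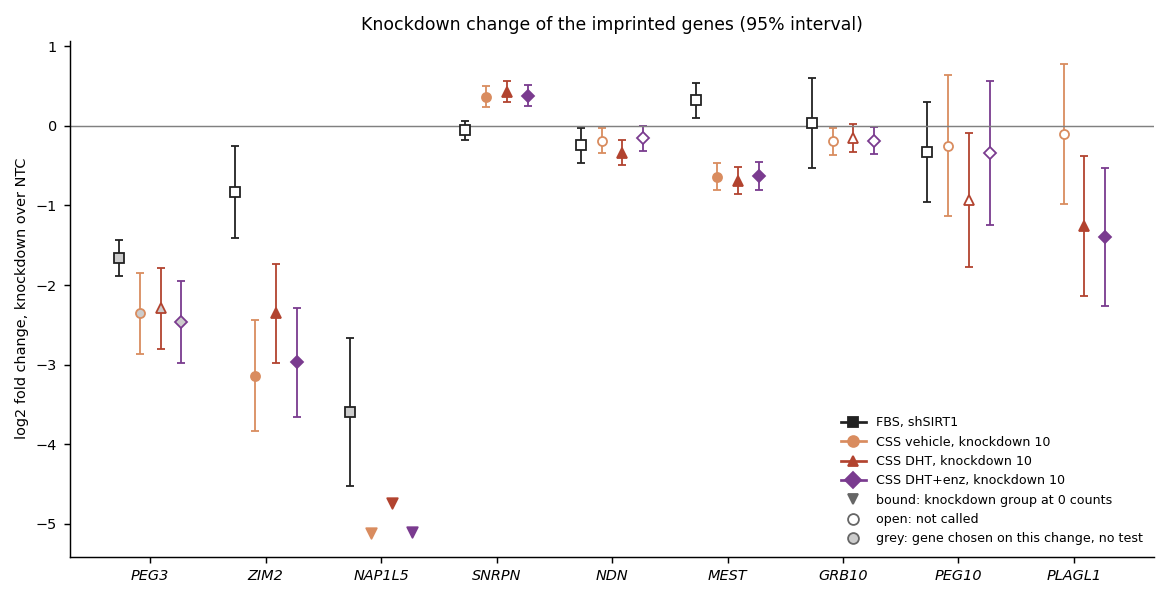
Log2 fold change of knockdown over NTC with its 95% interval (vertical axis) for 9 imprinted genes (horizontal axis) in FBS and under the 3 CSS treatments; filled symbols passed the edgeR threshold, open ones did not, grey ones belong to the genes chosen for this change, and triangles are bounds where knockdown 10 had 0 counts. MEST and SNRPN lie on opposite sides of 0 in CSS, and MEST lies above 0 in FBS, where no tested member was called. The intervals of the grey symbols do not allow for the choice of those genes by this change. PLAGL1 passed the low-count filter through NTC libraries only, so its filled symbols were favoured by the filter and support nothing.

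Whether the knockdown change differed between the sets was tested in a joint fit of the FBS libraries and the CSS vehicle libraries, in which 13.8% of all genes were called (7.47% higher and 6.29% lower in CSS relative to FBS). Medium, hairpin or clone and sequencing set all differ between these comparisons and cannot be told apart. The change was lower in CSS than in FBS for MEST (-0.92 ± 0.14, SE; edgeR adjusted p = 0.000653) and ZIM2 (-2.25 ± 0.49, adjusted p = 0.00694), and higher for SNRPN (0.46 ± 0.08, adjusted p = 0.00186). NDN (0.10 ± 0.12), PEG10 (0.12 ± 0.55) and GRB10 (-0.19 ± 0.28) were not called. The replicate block called GRB10 (-0.18, adjusted p = 0.0394, in a range of 0.0394 to 0.933).

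GRB10 was the member with a called DHT change in both cell lines. It was lower with DHT than with vehicle, and with enzalutamide added it was back within or near the range of the vehicle libraries. In knockdown 10 it measured 352, 415 and 411 CPM with DHT, against 624, 692 and 676 CPM with vehicle, a log2 fold change of -0.74 ± 0.08 (SE; edgeR adjusted p = 4.39e-06). In NTC cells it measured 368, 484 and 464 CPM with DHT, against 701, 782 and 807 CPM with vehicle, a log2 fold change of -0.79 ± 0.08 (adjusted p = 1.03e-06). Every library with DHT lay below every vehicle library of the same cells.

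With DHT and enzalutamide GRB10 measured 639, 662 and 702 CPM in knockdown 10, and was higher than with DHT alone by 0.75 ± 0.08 on the log2 scale (SE; edgeR adjusted p = 3.44e-06). In NTC cells it measured 703, 783 and 802 CPM with DHT and enzalutamide, and was higher than with DHT alone by 0.78 ± 0.08 (adjusted p = 9.41e-07). The DHT change differed between knockdown 10 and NTC by 0.04 (95% interval -0.20 to 0.29) and the enzalutamide change by -0.03 (-0.28 to 0.21), neither of which was called. The known androgen-induced gene KLK3, which encodes prostate-specific antigen, was 15.7-fold higher with DHT in knockdown 10 and 9.37-fold higher in NTC cells.

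The 250 bases before the GRB10 start that lies farthest upstream are shown because GRB10 was called for DHT in both cell lines. They span chr7:50793454-50793703 on the minus strand of GRCh38.p14, from RefSeq, and hold 37 CpG dinucleotides, again in capitals.
GRB10: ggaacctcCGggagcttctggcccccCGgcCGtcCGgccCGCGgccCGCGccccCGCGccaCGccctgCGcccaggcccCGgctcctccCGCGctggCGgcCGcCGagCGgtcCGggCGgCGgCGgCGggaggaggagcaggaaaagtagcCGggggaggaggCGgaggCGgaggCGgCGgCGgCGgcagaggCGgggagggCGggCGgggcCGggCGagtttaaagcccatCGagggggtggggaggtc
This window with the 50 bases after the start held 44 CpG and 81% G+C. TGCCGC occurred 1 time in it and in none of the windows of the other 4 GRB10 starts. AAGATGG, the YY1 motif, was searched on both strands and was in the window of 1 of those 4 starts and in 5.84% of all 35116 windows. The deposited counts are per gene and do not show which start was used.

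DDC, the gene next to GRB10, encodes aromatic amino acid decarboxylase and is imprinted in some tissues. It moved with DHT in the same direction as GRB10. In knockdown 10 DDC measured 25.3, 28.4 and 28.4 CPM with DHT, against 70.2, 56.4 and 61.9 CPM with vehicle (-1.19 ± 0.09 on the log2 scale, SE; edgeR adjusted p = 8.54e-08). In NTC cells it measured 54.7, 66.5 and 65.2 CPM with DHT, against 129, 132 and 135 CPM with vehicle (-1.07 ± 0.08, adjusted p = 4.24e-08). DDC was also called lower in knockdown 10 than in NTC cells under all 3 treatments (-1.07, -1.18 and -1.05, adjusted p = 6.2e-08, 2.34e-08 and 8.39e-08). There GRB10 was not called in the main fit but was with the replicate block. FIGNL1, on the far side of DDC, was higher with DHT in NTC cells (0.72 ± 0.10, adjusted p = 2.32e-05), and so the 3 tested neighbours of GRB10 did not all move one way with DHT. In knockdown 10 against NTC cells all 3 (DDC, FIGNL1 and COBL) were called lower under every CSS treatment. Of all genes, 19.1, 23.5 and 19.2% were called lower there with vehicle, DHT, and DHT with enzalutamide.

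**Figure D4:**
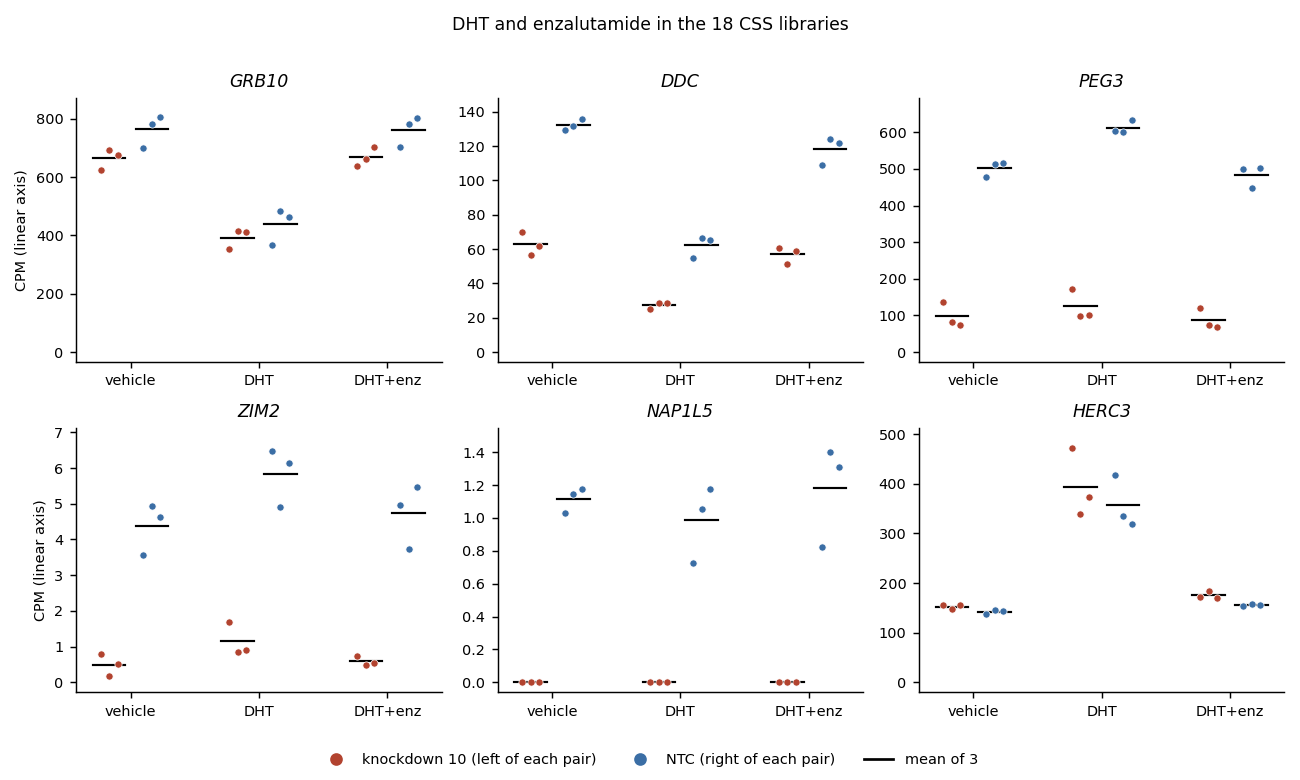
CPM (vertical axis, linear) of GRB10 and its neighbour DDC, of PEG3 and ZIM2, and of NAP1L5 and its host HERC3 in the 18 CSS libraries by treatment (horizontal axis), with knockdown 10 in red to the left of NTC in blue and a black bar for the mean of 3. GRB10 and DDC are lowest with DHT alone in both cell lines, HERC3 is highest there, and NAP1L5 is at 0 in all knockdown 10 libraries.

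Of the 9 tested members, GRB10 was the only one called for DHT against vehicle in NTC cells, where 29.9% of all genes were called (17.4% higher and 12.5% lower), and for DHT with enzalutamide against DHT in NTC cells, beside 29.2% of all genes (12.6% higher and 16.6% lower). In knockdown 10 NAP1L5 had no value, and of the other 8, GRB10 and ZIM2 were called for DHT, beside 22.2% (13.3% higher and 8.92% lower), and GRB10 for enzalutamide, beside 20.3% (8.08% higher and 12.2% lower). These shares of members were near or below those of all genes. No member with a value in both cell lines showed a called difference in its DHT or enzalutamide change between knockdown 10 and NTC: edgeR called 0 of 8 in each, 0 of 8 had an unadjusted p under 0.05, and DESeq2 and limma called 0. Of all genes 0.199% were called for the DHT difference (0.0412% higher and 0.158% lower) and 0.35% for the enzalutamide difference (0.268% higher and 0.0824% lower).

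PEG3 had higher means with DHT than with vehicle or with enzalutamide added, and this was not called. In NTC cells the change with DHT was 0.30 ± 0.23 on the log2 scale (SE; edgeR adjusted p = 0.35), although the 3 DHT libraries lay above the 3 vehicle libraries, and the change on adding enzalutamide was -0.36 ± 0.23 (adjusted p = 0.261). In knockdown 10 these were 0.36 ± 0.23 (adjusted p = 0.302) and -0.53 ± 0.24 (adjusted p = 0.124), with overlapping libraries. In knockdown 10 the outcome depended on its library 1. Without vehicle library 1 alone the DHT change was 0.69 (adjusted p = 0.0419), and without library 1 with DHT and enzalutamide the enzalutamide change was -0.83 (adjusted p = 0.0209). Without the 3 knockdown 10 libraries numbered 1 the changes in knockdown 10 were 0.38 and -0.52 with adjusted p = 0.00181 and 0.000129. With the 6 libraries of NTC alone the changes in NTC cells were 0.29 and -0.35 with adjusted p = 0.0016 and 0.00171. The replicate block called the enzalutamide change in knockdown 10 (-0.53, adjusted p = 0.019). Over all alternatives the adjusted p ranged from 0.0016 to 0.491 for DHT in NTC cells, 0.00171 to 0.456 for enzalutamide in NTC cells, 0.00181 to 0.961 for DHT in knockdown 10 and 0.000129 to 0.624 for enzalutamide in knockdown 10.

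ZIM2 was called higher with DHT in knockdown 10, where it measured 1.70, 0.855 and 0.899 CPM with DHT, against 0.796, 0.166 and 0.511 CPM with vehicle, a log2 fold change of 1.22 ± 0.39 (SE; edgeR adjusted p = 0.0317). The groups did not overlap, but the vehicle libraries held only 26, 5 and 15 reads. The call was lost without vehicle library 2 (0.81, adjusted p = 0.132) or 3 (1.21, adjusted p = 0.0848), without DHT library 1 (0.81, adjusted p = 0.204), with limma (0.46, adjusted p = 0.0687) and with the 6 libraries fitted alone (adjusted p = 0.135), in a range of 0.0046 to 0.204 over the alternatives. In NTC cells the change was 0.44 ± 0.25 (adjusted p = 0.207), and the difference between the cell lines, 0.78 ± 0.46, was not called (adjusted p = 0.583). On adding enzalutamide ZIM2 changed by -0.94 ± 0.38 in knockdown 10, which was not called by edgeR (adjusted p = 0.0939) but was by DESeq2 (-0.93, adjusted p = 0.0368).

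NAP1L5 in NTC cells showed no called response, with 0.728, 1.06 and 1.17 CPM with DHT, against 1.03, 1.14 and 1.18 CPM with vehicle (-0.17 ± 0.27 on the log2 scale, SE; edgeR adjusted p = 0.68). The 95% interval of that change, -0.76 to 0.42, excludes the increase seen for its host. HERC3 measured 471, 338 and 374 CPM with DHT in knockdown 10, against 155, 147 and 156 CPM with vehicle (1.38 ± 0.11, adjusted p = 1.26e-07), and 418, 334 and 319 CPM with DHT in NTC cells, against 138, 145 and 143 CPM with vehicle (1.35 ± 0.11, adjusted p = 4.98e-08). With enzalutamide added to DHT, HERC3 changed by -1.19 in knockdown 10 and -1.22 in NTC cells (adjusted p = 3.54e-07 and 1.04e-07). FAM13AOS, the next gene on the other side of NAP1L5, was also higher with DHT, by 1.35 in knockdown 10 and 0.97 in NTC cells (adjusted p = 0.00036 and 0.0038).

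The remaining members were not called for androgen. For DHT in NTC cells the changes were 0.17 ± 0.08 for MEST, 0.04 ± 0.07 for NDN, -0.14 ± 0.06 for SNRPN, 0.72 ± 0.38 for PLAGL1 and 0.81 ± 0.39 for PEG10 on the log2 scale (SE), none of them called. In knockdown 10 they were 0.12 ± 0.08 for MEST, -0.11 ± 0.08 for NDN, -0.08 ± 0.06 for SNRPN, -0.43 ± 0.46 for PLAGL1 and 0.13 ± 0.43 for PEG10. Adding enzalutamide gave no call among these 5 genes in either cell line. Without library 2 of knockdown 10 with DHT, NDN was called higher there on adding enzalutamide (0.25, adjusted p = 0.0259), as it was with limma (0.21, adjusted p = 0.0458), in a range of 0.0259 to 0.584. The replicate block called 2 of these genes in NTC cells. PEG10 was called for DHT (0.83, edgeR adjusted p = 0.019, range 0.019 to 0.334) and for enzalutamide (-0.86, adjusted p = 0.0149, range 0.0149 to 0.254), and SNRPN for DHT (-0.14, adjusted p = 0.0101, range 0.0101 to 0.28) and for enzalutamide (0.13, adjusted p = 0.0232, range 0.0232 to 0.362).

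To place the members, a list of 72 other imprinted human genes was read, of which 70 were in the files, 43 passed the filter in FBS and 42 in CSS. In FBS 0 were higher and 3 lower in shSIRT1 cells, where 2.71% of all genes were called. With the replicate block these counts were 3 and 4, where 1676 of all genes were called in place of 389. In knockdown 10, 11 were higher and 6 lower with vehicle, 10 higher and 13 lower with DHT, and 5 higher and 8 lower with DHT and enzalutamide, where 34.6, 43 and 34.6% of all genes were called, so these counts do not set the list apart. With the replicate block they were 13 and 9, 12 and 13, and 8 and 10, and the CSS shares above are those of the fit without it. The median log2 fold change of the list was 0.06 in FBS and 0.04, 0.08 and 0.02 in CSS, against 0.01, 0.00, 0.00 and 0.00 over all genes.

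The 3 genes lower in FBS were SLC22A3, ATP10A and PHLDA2. SLC22A3, an organic cation transporter gene, was nearly lost: its 3 libraries summed to 49 reads in shSIRT1 cells, against 2405 in NTC cells (-5.46 ± 0.17 on the log2 scale, SE; edgeR adjusted p = 1.44e-06). In knockdown 10 the sums were 51 reads with vehicle, 14 with DHT and 8 with DHT and enzalutamide, against 6597, 5417 and 6927 in NTC cells (-7.05, -8.40 and -9.51, adjusted p = 9.82e-14, 1.69e-13 and 5.6e-14). PHLDA2, a placental growth-restraining gene, was lower in shSIRT1 cells, at -0.78 ± 0.17 (adjusted p = 0.0454). In the opposite direction, CTNNA3, a catenin gene, was higher in knockdown 10 by 2.37, 2.76 and 2.35 under vehicle, DHT and DHT with enzalutamide (adjusted p = 1.74e-06, 5.75e-07 and 1.49e-06), and the potassium channel gene KCNQ1 by 0.70, 1.03 and 0.64 (adjusted p = 2.59e-05, 5.16e-07 and 6.96e-05).

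With DHT, 3 of the 42 were higher and 6 lower in knockdown 10, and 6 were higher and 7 lower in NTC cells, where 22.2 and 29.9% of all genes were called. With enzalutamide added, 5 were higher and 2 lower in knockdown 10, and 8 were higher and 6 lower in NTC cells, where 20.3 and 29.2% of all genes were called. With the replicate block the counts in knockdown 10 were 6 higher and 8 lower with DHT and 7 higher and 4 lower with enzalutamide added. In NTC cells the block gave 7 higher and 9 lower with DHT, and 10 higher and 10 lower with enzalutamide added. The shares above are those of the fit without the block. Beside DDC, those with the lowest adjusted p were KCNQ1, lower with DHT, at -0.32 in knockdown 10 and -0.65 in NTC cells, the coatomer gene COPG2 (-0.28 and -0.24), the neuronal scaffold gene PPP1R9A (-0.34 and -0.40) and the oxysterol-binding protein gene OSBPL5, which was higher (0.34 and 0.30).

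Of 20 genes with known roles in setting, keeping or erasing imprints, 17 were tested. In FBS edgeR called 0 of them (4 at an unadjusted p under 0.05), where 2.71% of all genes were called. With the replicate block, where 1676 of all genes were called, it called DNMT1, higher by 0.16 (adjusted p = 0.03). In knockdown 10, 4 were higher and 5 lower with vehicle, 2 higher and 6 lower with DHT, and 1 higher and 7 lower with DHT and enzalutamide, beside 34.6, 43 and 34.6% of all genes called. With the replicate block these counts were 4 and 6, 3 and 7, and 2 and 9, and the CSS shares above are those of the fit without it. UHRF1 averaged 4.36 ± 0.04 CPM in knockdown 10 and 18.9 ± 2.24 CPM in NTC cells with vehicle (SD, n = 3 each), a log2 fold change of -2.11 ± 0.16 (SE; edgeR adjusted p = 4.42e-08), and it was also lower with DHT (-1.54, adjusted p = 1.66e-07) and with DHT and enzalutamide (-2.02, adjusted p = 1.02e-07). DNMT1 was lower, at -0.39, -0.76 and -0.34 (adjusted p = 5.83e-05, 2.5e-08 and 0.000238). The methylcytosine dioxygenase gene TET2 was higher by 0.45, 0.58 and 0.48 (adjusted p = 9.1e-06, 3.85e-07 and 4.82e-06).

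UHRF1, DNMT1 and SMCHD1 were also higher with DHT, and TET2 was lower, at -0.20 in knockdown 10 and -0.33 in NTC cells (edgeR adjusted p = 0.0161 and 0.000264). With DHT, UHRF1 was higher by 2.08 in knockdown 10 and 1.51 in NTC cells (edgeR adjusted p = 1.32e-07 and 2.16e-07), and DNMT1 by 0.65 and 1.02 (adjusted p = 5.01e-07 and 1.6e-09). SMCHD1, a chromatin protein gene that silences the inactive X chromosome and some imprinted clusters, was higher by 0.29 and 0.45 (adjusted p = 0.00652 and 9.4e-05). With enzalutamide added, DNMT1 was lower, at -0.64 in knockdown 10 and -1.06 in NTC cells. This enzalutamide change differed between the cell lines by 0.42 ± 0.08 (edgeR adjusted p = 0.033). It was the 1 call among the 17 tested factors for that difference, where 0.35% of all genes were called. The DHT change of DNMT1 differed by -0.37, which was not called (adjusted p = 0.0775) but was with the replicate block (adjusted p = 0.0138). ZFP57 itself was under the filter, at a mean of at most 0.03 TPM in any group. Whether any of these genes bears on the levels of the members was not tested.

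The genes whose pattern over the 18 CSS libraries was most like that of PEG3, by Pearson correlation of log2 CPM among 12060 genes, were NEK6 (r = 0.990), ETV1 (0.988), PPAT (0.986), LDHB (0.984) and FAM189B (0.984). For NAP1L5, among 12061 genes, they were DDIT4L (0.995), SMO (0.992), TLL1 (0.992), BTF3L4 (0.992) and CFL2 (0.991). These coefficients describe libraries that share their knockdown line, treatment and depth, and for NAP1L5 the 9 knockdown 10 libraries are all at 0. By Spearman correlation 1 of the 5 genes for PEG3 and 0 of the 5 for NAP1L5 were again among the 5 nearest.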

How the data were processed

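The authors prepared RNA with TRIzol and made libraries from about 500 ng with a stranded mRNA kit, per the labels' protocols. CASAVA 1.8.2, RSEM 1.2.31 and hg19 are named in the submitters' processing notes. The aligner is not given in the sources used here. Per the file headers, RSEM's expected count, TPM and FPKM stand side by side for 23207 genes in each library. The deposited TPM was used for levels per length, FPKM in no result. The deposited expected counts, rounded, were tested with edgeR 4.0.16 (R 4.3.3) quasi-likelihood F tests, two-sided, after TMM scaling and filterByExpr by group. FBS (6 libraries, 14329 genes), CSS (18 libraries, 14558 genes) and FBS with CSS vehicle (12 libraries, 15345 genes) were fitted separately. Calls needed p under 0.05 after Benjamini-Hochberg adjustment over all genes of 1 comparison, with 11 comparisons and no adjustment across them. CPM are counts scaled to 1000000 per library, intervals are 95%, and p values for PEG3 and NAP1L5 are withheld where knockdown was compared. Both genes remain among all genes in the adjustment and the totals.

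The members and gene lists were chosen with earlier results of these data known. All 10 members are named. Of the other imprinted genes those called in all 4 knockdown comparisons and up to 4 with the lowest adjusted p per comparison were eligible, and of the imprint factors up to 3; neighbours and relatives named besides were chosen after their values were seen.

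Same-numbered libraries deviated together, with correlations of 0.159 to 0.674 in all 8 comparisons of 2 groups that were tested. The labels state no pairing, so the main fit has no replicate term and its calls leave this likeness out. A fit with the replicate number as a block is quoted for the members where it changes a call. It is also quoted beside most list counts, where the shares of all genes are those of the main fit. FBS libraries 1 and 2 differed by more than sampling noise and were kept apart, although they stood far closer to each other than to library 3. With them summed, 44 genes were called in FBS in place of 389. FBS calls may thus rest on libraries that are not independent. Whether ATP10A, PHLDA2 and UTRN stayed called in that setting was not recorded. The test was tried on simulated counts (seed 7): at 2-fold and 1.5-fold changes it recovered 83 and 76% of 100 genes each in FBS, 92 and 84% for knockdown 10 with vehicle, and 98 and 69% for DHT in NTC cells. False calls among the unchanged genes numbered 12, 18 and 10. The changed genes all had a mean above 1 CPM and the libraries were simulated as independent. The figures therefore do not cover members below that level or libraries that deviate together. Alternatives were size factors of the DESeq2 kind, no low-count filter, DESeq2 1.42.0, limma 3.58.1 on log2(TPM + 1), the replicate block, other sets of libraries and each library left out. RefSeq promoter windows (GRCh38.p14) supplied sequences and coordinates, which the count files do not hold. Some genes and a motif that were examined are not reported here.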

Additional observations from a re-analysis of the deposited data

Results flagged for a closer look

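For 3 members the knockdown change in CSS with vehicle differed from that in FBS in the joint edgeR fit. MEST differed by -0.92 on the log2 scale (adjusted p = 0.000653), with 7.65 to 9.19 CPM in knockdown 10 and 12.5 to 13.7 CPM in NTC cells with vehicle, against 21.8 to 26.9 CPM in shSIRT1 and 18.6 to 21.2 CPM in NTC cells in FBS. ZIM2 differed by -2.25 (adjusted p = 0.00694), on 0.166 to 0.796 CPM in knockdown 10. SNRPN differed by 0.46 (adjusted p = 0.00186). All 3 stayed called in the 20 alternatives run for each, with adjusted p of at most 0.0072, 0.0256 and 0.0201. SIRT1 itself was less reduced in knockdown 10 than in shSIRT1 cells (difference 0.73, adjusted p = 0.00156). Medium, hairpin or clone, and sequencing set change together here and cannot be told apart.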

How the results depend on the processing

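Of 89 member fold changes, none reversed a call. Of 1272 alternative values 1169 kept their sign and their side of the threshold (for PEG3 and NAP1L5 under knockdown, moved by less than 1 SD), and 51 changed sign with neither value called. Of the 8 members other than PEG3 and NAP1L5, the number called moved with the replicate block in FBS (2 for 0), with vehicle (5 for 3), for DHT in NTC cells (3 for 1) and enzalutamide in NTC cells (3 for 1); in FBS also in 1 fit of all 24 libraries (1) and without both libraries numbered 3 (3). For DHT in knockdown 10 limma and the 6 libraries alone gave 1 for 2; for enzalutamide in knockdown 10 DESeq2 and limma gave 2 for 1, and in NTC cells the 6 libraries alone gave 2. With 1 library left out this number was 0 to 1 in FBS, 1 to 2 for DHT in each cell line and 1 to 2 for enzalutamide in knockdown 10. Over all genes, 389 were called in FBS, against 244 with limma, 1676 with the replicate block, 876 with all 24 libraries, 44 with libraries 1 and 2 summed, 3426 without both libraries numbered 3 and 103 to 926 with 1 library left out. The DHT difference between cell lines had 29 calls, against 144 (DESeq2), 7 (limma), 427 (block) and 5 to 90 with 1 library left out, and the enzalutamide difference 51, against 225, 24, 573 and 16 to 176. Enzalutamide in knockdown 10 had 2949 calls, against 4518 with the block, 1550 with the 6 libraries alone and 1688 without the knockdown 10 libraries numbered 1, and DHT there 3236, against 1649 and 1886 in these last 2 settings. The difference between sets had 2112 calls, against 3937 with the block and 1118 with FBS libraries 1 and 2 summed. The cause of these shifts was not tested. Counts limit NAP1L5, ZIM2, PLAGL1, PEG10 and SGCE most. The NAP1L5 change in FBS was -3.60 in counts and -1.30 on log2(TPM + 1).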

Other observations

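Of 19 paralogs of the members, 14 were tested. In knockdown 10 with vehicle edgeR called 1 of them higher and 2 lower (3 and 4 with the replicate block), where 34.6% of all genes were called without the block. NAP1L1, the widely expressed relative of NAP1L5, was lower in knockdown 10, at -0.50, -0.35 and -0.50 with vehicle, DHT and DHT with enzalutamide (edgeR adjusted p = 5.31e-05, 0.00103 and 5.8e-05), while NAP1L4 was not called in any knockdown comparison. NAP1L3, an X-linked relative, was lower with DHT, at -0.85 in knockdown 10 and -0.66 in NTC cells (adjusted p = 1.53e-05 and 0.000126). GRB14, a relative of GRB10 that also binds the insulin receptor, was lower with DHT, at -0.55 in knockdown 10 and -0.65 in NTC cells, and had lower levels than GRB10 throughout, with means of at most 3.82 TPM. MAGED2, of the family of NDN, was higher in knockdown 10 by 0.30, 0.43 and 0.30.

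UTRN, the utrophin gene near PLAGL1, was lower in all 4 knockdown comparisons, at -0.35 in FBS and -0.24, -0.39 and -0.30 in CSS (adjusted p = 0.0228, 0.00306, 2.38e-05 and 0.000498).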
